A study of Mus musculus with 12 samples.

Results

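Mouse embryonic stem (ES) cells of 3 genotypes were compared between day 12 and day 8 of differentiation, using the 3 libraries titled as day 12 and the 3 titled as day 8, 6 of the 12 libraries of the study. The genotypes were wild type (WT), SUV420H2 knockout (KO) and SUV420H1/H2 double knockout (DKO), and each contributed 1 library of polyadenylated RNA per day, so that each day 12 library was paired with the day 8 library of its own cell line. The other 6 libraries were undifferentiated ES cells grown on gelatin with 1.5 µM of a GSK3 inhibitor. How the cells were differentiated is not stated; the labels keep the cell type as ES cell, while the deposited tables name the differentiated samples EB, the usual short form of embryoid body. Each genotype stands for a single line, and nothing in the labels says that libraries came from separate cultures or clones, so genotype and cell line cannot be told apart.

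SUV420H1 and SUV420H2 are histone methyltransferases that carry lysine 20 of histone H4 from the monomethylated to the di- and trimethylated state, and the trimethylated state is typical of constitutive heterochromatin. When ES cells are taken out of conditions that hold them pluripotent and allowed to aggregate, they lose the transcription factors of the naive and primed epiblast. They then give rise to a mixture of cells: an outer layer that resembles the extraembryonic endoderm of the yolk sac, which lays down basement membrane and secretes serum proteins, and inner mesoderm with early blood, endothelium and heart muscle. Polyadenylated RNA of such a mixture reports the share of each cell type and its activity together. In bulk samples, fewer cells of a type and less RNA per cell cannot be told apart.

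Between 22538336 and 26675600 reads lay in genes per differentiated library. Suv420h2 was at 128 and 126 CPM (read counts scaled to library size) for WT at days 8 and 12, the order of all paired values below, at 26.9 and 40.4 CPM for KO, and at 38.2 and 25.3 CPM for DKO, so both lines labelled as lacking it were below WT at each day. Suv420h1 was at 56.1 and 54.8 CPM for WT, at 50.7 and 51.8 CPM for KO and at 61.7 and 86.1 CPM for DKO. Suv420h1 was thus not lower in DKO than in WT, and counts over a whole transcript do not check a deletion of single exons, so the DKO libraries are called by their label. The lines also differed in sex chromosome transcripts: the Y-linked gene Ddx3y was at 37.3 and 36.6 CPM for WT and at most 0.0367 CPM for KO and DKO, and Xist, the RNA of X inactivation, was at 261 and 647 CPM for KO against at most 11.1 CPM elsewhere. Across the 12896 genes tested, log2(CPM + 1) values of WT day 8 correlated more closely with KO day 12 (Pearson r = 0.937) than with WT day 12 (r = 0.923) or KO day 8 (r = 0.818), a description in which the libraries share the genes and the scaling. The genotype labels can be set beside Suv420h2 and the Y-linked genes, but no value here checks the day labels, and each direction given for WT rests on them.

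The shared change was the mean log2 difference of day 12 from day 8 over the 3 lines, and none of the 12896 genes passed an adjusted p of 0.05 in edgeR's quasi-likelihood test with the genotype as a block (0.0% called). With 2 residual degrees of freedom the lowest adjusted p was 0.252, and 1582 genes had an unadjusted p under 0.05. DESeq2, run as an alternative on the same model, called 365 of 12645 genes higher (2.89%) and 198 lower (1.57%) at day 12. All calls below are DESeq2's and are absent in edgeR, so the direction words that follow describe the values of these 6 libraries. As a description without a test, each line's own log2 ratio of day 12 to day 8 was taken on CPM with a prior count of 2, and a ratio past 1 or -1 counted as 2-fold. In WT 1026 genes were at least 2-fold higher (7.96%) and 1188 lower (9.21%), in KO 1454 (11.3%) and 603 (4.68%), and in DKO 1465 (11.4%) and 1042 (8.08%). In all 3 lines at once 144 genes were at least 2-fold higher (1.12%) and 82 lower (0.636%). Without a size limit, 2177 genes were above 0 in all 3 lines (16.9%) and 2646 below (20.5%). Because the lines started from different levels, the 3 day 12 values lay entirely above the 3 day 8 values in only 376 genes (2.92%) and entirely below in 249 (1.93%).

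**Figure D1:**
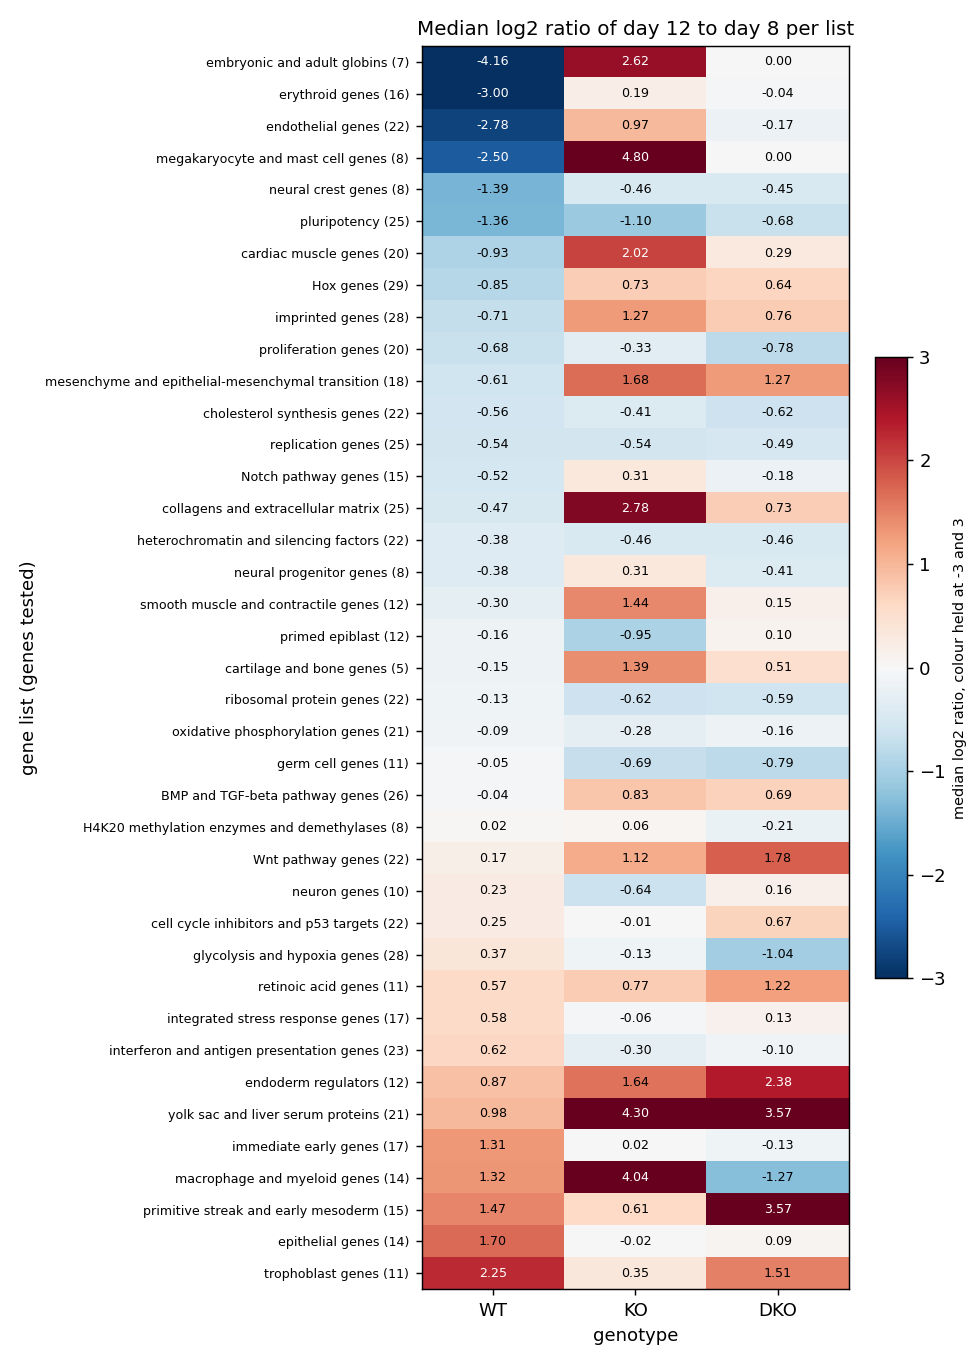
Median log2 ratio of day 12 to day 8 in WT, KO and DKO for 39 of the 40 gene lists, those with at least 5 genes tested (number beside the name); each cell rests on a single pair of libraries, and colour is held at -3 and 3. Endoderm regulators are above 0 in all 3 lines (0.87, 1.64 and 2.38) and pluripotency genes below (-1.36, -1.10 and -0.68), while globins read -4.16 in WT, 2.62 in KO and 0.00 in DKO.

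Of the 12 genes with the smallest p-values among those higher at day 12 in all 3 lines, several code for secreted or matrix proteins. Lama1, the laminin alpha 1 chain of embryonic basement membrane, was at 125 and 1596 CPM at days 8 and 12 in WT, at 6.63 and 46.0 CPM for KO and at 30.1 and 431 CPM for DKO. Each line's day 12 library was several-fold above its own day 8 library, and the lines overlapped, the KO day 12 level lying below the WT day 8 level. The shared log2 fold change of Lama1 was 3.45 (SE 0.29), with an adjusted p of 0.37 in edgeR and 5.1e-25 in DESeq2. Tinagl1, a matrix glycoprotein, was at 80.7 and 696 CPM for WT, 16.7 and 104 CPM for KO and 8.10 and 54.4 CPM for DKO (2.83, SE 0.18; DESeq2 adjusted p = 7.0e-27). Spock1, a secreted proteoglycan, was at 9.49 and 218 CPM, 0.214 and 3.08 CPM, and 1.25 and 32.1 CPM in the same order (4.44, SE 0.26; edgeR adjusted p = 0.25). In all 3 genes WT was highest at both days. The log2 ratios of Tinagl1 ran from 2.62 to 3.11. A small shared p favours genes whose lines differ by like amounts, so likeness of the ratios in the 12 genes follows from how they were chosen.

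The type IV collagen chains, which form the network of the same membrane, had the same pattern. Col4a1 was at 791 and 6767 CPM for WT, 109 and 383 CPM for KO and 137 and 1552 CPM for DKO, and Col4a2 had log2 ratios of 2.93, 1.99 and 3.43 in the 3 lines. Sparc, a collagen-binding matrix protein, had log2 ratios of 1.47, 1.66 and 2.05 (shared 1.73, SE 0.22; DESeq2 adjusted p = 2.5e-10). Among genes that serve secretion, Kdelr3, a receptor that returns escaped proteins to the endoplasmic reticulum, was higher by 1.68 on the log2 scale (SE 0.19). Creb3l1, a transcription factor released from that compartment, was higher by 1.55 (SE 0.17), and Fam20c, a kinase of secreted proteins, by 1.99 (SE 0.23). Chst15, which sulfates chondroitin chains, had nearly equal log2 ratios of 1.47, 1.44 and 1.43. The other 5 genes that the naming rule put here were Hkdc1, a hexokinase relative (3.51, SE 0.32), the prostaglandin transporter Slco2a1 (3.43, SE 0.34), Mamld1 (3.10), Arhgef6 (2.86) and Fam78b (2.29). None of the 12 genes with the smallest p passed in edgeR, and each had a DESeq2 adjusted p of 1.3e-07 or lower.

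**Figure D2:**
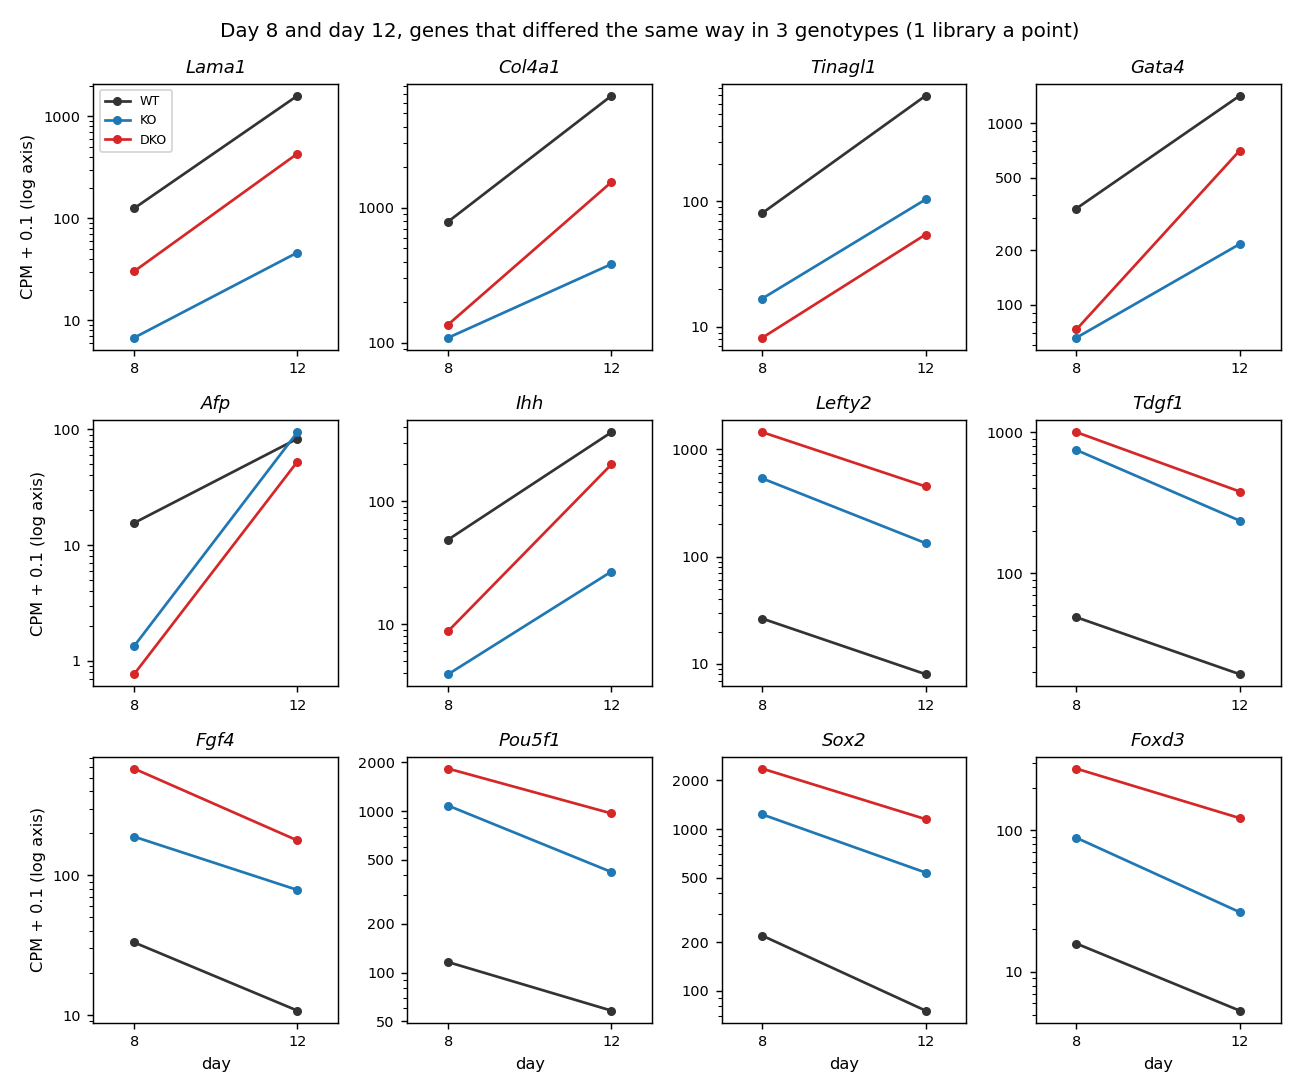
CPM + 0.1 on a log axis at days 8 and 12 for 12 genes that differed in the same direction in WT, KO and DKO; each point is 1 library and each line joins a cell line's days. Lama1, Col4a1, Tinagl1, Gata4, Afp and Ihh slope upward in every line, while Lefty2, Tdgf1, Fgf4, Pou5f1, Sox2 and Foxd3 slope downward in every line from a WT level that is already the lowest at day 8.

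Transcription factors of endoderm were higher at day 12 in most cases. Of 12 regulators tested (Pdx1 did not reach the level filter), 4 were at least 2-fold higher in WT, 8 in KO and 9 in DKO, none was 2-fold lower in any line, and 9 were above 0 in all 3. DESeq2 called 8 of the 12 higher, against 2.89% of all genes. Gata4, a zinc finger factor of extraembryonic endoderm and heart, was at 339 and 1412 CPM for WT, 65.8 and 216 CPM for KO and 73.1 and 705 CPM for DKO (shared 2.34, SE 0.37; edgeR adjusted p = 0.37). Foxa2, a forkhead factor of endoderm, was at 33.2 and 254 CPM for WT, 13.7 and 47.8 CPM for KO and 8.28 and 131 CPM for DKO, and its day 12 libraries all lay above its day 8 libraries. Foxa1 and Foxa3 also had no overlap between days. Sox17, an SRY-box factor of endoderm, had log2 ratios of 2.73, 1.37 and 4.90, and Hnf4a, which drives liver and yolk sac genes, 0.92, 2.85 and 3.32. Gata6 differed by line: 659 and 745 CPM for WT, 65.8 and 321 CPM for KO, and 23.1 and 132 CPM for DKO. WT therefore held at day 8 more Gata6 RNA than either other line had at day 12.

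Genes of yolk sac endoderm and liver, most of them coding for secreted serum proteins, accompanied these factors. The 26 listed also include genes of endocytosis (Amn, Cubn, Lrp2 and Dab2), the ligand gene Ihh and Mttp, and 21 of the 26 passed the level filter. At day 12 at least 2-fold higher levels were found for 10 of the 21 in WT, 15 in KO and 20 in DKO, and 15 were above 0 in all 3 lines, with median log2 ratios of 0.98, 4.30 and 3.57. DESeq2 called 14 higher and none lower in the shared comparison. Of all genes, 16.9% were above 0 in all 3 lines, and DESeq2 called 2.89% higher. Afp, alpha-fetoprotein, was at 15.4 and 82.9 CPM for WT, 1.24 and 94.4 CPM for KO and 0.667 and 52.5 CPM for DKO (shared 4.98, SE 1.05; DESeq2 adjusted p = 2.1e-09). The shared value of Afp was 6.26 without the WT pair, 4.19 without the KO pair, 4.25 without the DKO pair and 3.72 without the genotype block. All 3 day 12 libraries lay above all 3 day 8 libraries. Alb, albumin, had no reads in any day 8 library, where 3 reads per library would be 0.133 CPM or less, and was at 9.29, 3.59 and 4.34 CPM at day 12, at least 80-fold, 27-fold and 32-fold higher. The fibrinogen chain gene Fgb was at 7.30 and 15.3 CPM for WT, 0.300 and 20.4 CPM for KO and 0.489 and 10.7 CPM for DKO, also without overlap.

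The serum protein genes did not start from the same level. Ttr, the carrier transthyretin, was at 71.4 and 63.9 CPM for WT, 1.67 and 85.8 CPM for KO and 4.76 and 102 CPM for DKO, so that the day 12 levels of the 3 lines lay close together and only the day 8 levels differed widely. Rbp4, the retinol carrier, was at 108 and 202 CPM, 6.98 and 257 CPM, and 1.42 and 70.4 CPM. Apob, the structural protein of lipoproteins, was at 578 and 341 CPM for WT, 3.51 and 244 CPM for KO and 63.0 and 882 CPM for DKO. Ttr, Rbp4 and Apob were among the 10 of 21 that DESeq2 called lower in WT than in the common change of the other lines, against 3.01% of all genes; edgeR called none. Apoa1, the main protein of high density lipoprotein, differed most in KO, at 1.37 and 279 CPM (log2 ratio 7.59, against 0.81 in WT and 2.45 in DKO). In the other direction, Lrp2, an endocytic receptor of visceral endoderm, was at 40.9 and 17.5 CPM for KO but at 101 and 199 CPM for WT and 126 and 410 CPM for DKO. Ihh, the hedgehog ligand of visceral endoderm, was higher in all 3 lines by log2 ratios of 2.90, 2.78 and 4.51 (shared 3.40, SE 0.44; DESeq2 adjusted p = 1.0e-12).

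Pluripotency genes were lower at day 12. All 25 listed genes were tested, and 14 were at least 2-fold lower in WT, 14 in KO and 7 in DKO, with medians of -1.36, -1.10 and -0.68 against medians of all genes of -0.056, 0.001 and -0.004. Of the 25, 16 were below 0 in all 3 lines (20.5% of all genes were), and DESeq2 called 13 lower (1.57% of all genes) and none higher. Pou5f1, the core factor Oct4, was at 116 and 58.0 CPM for WT, 1080 and 419 CPM for KO and 1830 and 967 CPM for DKO (shared -1.10, SE 0.19; edgeR adjusted p = 0.37). The lines differed by more than the days did: KO and DKO at day 12 still lay above WT at day 8. Sox2, its partner factor, had log2 ratios of -1.54, -1.19 and -1.04. Fgf4, a growth factor under their control, was at 33.0 and 10.7 CPM, 190 and 78.7 CPM, and 583 and 178 CPM (shared -1.54, SE 0.17; DESeq2 adjusted p = 1.4e-08).

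Some genes of Nodal signalling, which patterns the epiblast and streak, were lower in all 3 lines and others were not. Lefty2, a secreted Nodal antagonist and target, was at 26.4 and 7.92 CPM for WT, 536 and 134 CPM for KO and 1447 and 451 CPM for DKO (shared -1.81, SE 0.17; DESeq2 adjusted p = 2.0e-13). Its relative Lefty1 had log2 ratios of -0.95, -2.31 and -1.34. Tdgf1, the Nodal co-receptor Cripto, was at 48.8 and 19.3 CPM, 746 and 236 CPM, and 998 and 380 CPM, again lower in each line and higher in KO and DKO than in WT. Nodal itself was at 167 and 165 CPM for DKO, at 125 and 44.4 CPM for KO and at 13.5 and 8.80 CPM for WT. Of the other genes that the naming rule put among the lowest shared p-values, Gbx2, an epiblast and hindbrain homeobox gene, was lower by 2.11 on the log2 scale (SE 0.21) and Foxd3, a forkhead factor of the epiblast, by 1.50 (SE 0.19). The sex determination factor Dmrt1 (-1.36), Pipox (-2.06), Cobl (-1.18), the immunophilin Fkbp5 (-1.11), Rbpms2 (-1.06), 2410007B07Rik (-1.72) and Zfp819 (-1.83) completed the 12, and all had a DESeq2 adjusted p of 0.00012 or lower.

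A few pluripotency genes were not clearly lower at day 12 in every line. Klf4, a naive factor that is also expressed in differentiated epithelia, was at 56.0 and 642 CPM for WT, 38.4 and 52.3 CPM for KO and 380 and 331 CPM for DKO, and DESeq2 called the WT difference higher than that of the other lines (adjusted p = 1.5e-07; none in edgeR). Klf5, of the same family, had log2 ratios of 1.65, -0.92 and -0.26. Nanog, a core factor, was at 38.9 and 13.4 CPM for WT and 292 and 216 CPM for KO, but at 251 and 249 CPM for DKO. Epithelial genes were most often at least 2-fold higher in WT, alongside Klf4 and Klf5: 12 of 14 tested, against 5 in KO and 4 in DKO. Of the 14, 6 were above 0 in all 3 lines (16.9% of all genes were). DESeq2 called 6 higher in the shared comparison (2.89% of all genes) and 4 higher in WT than in the other lines (1.17%). Cdh1, E-cadherin, was at 180 and 550 CPM for WT, 589 and 415 CPM for KO and 510 and 470 CPM for DKO. Among the epithelial genes higher in all 3 lines were the keratins Krt18 (log2 ratios 1.57, 1.38 and 2.22) and Krt8 (0.98, 1.40 and 3.18), which pair in simple epithelia.

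Smaller differences ran the same way in nearly all members of the cell division lists. All 20 proliferation genes were below 0 in WT, in KO and in DKO, with medians of -0.68, -0.33 and -0.78, and few were past 2-fold (1, 0 and 3). Mki67, the Ki-67 antigen, was at 607 and 248 CPM for WT, 531 and 449 CPM for KO and 572 and 332 CPM for DKO. Top2a, the topoisomerase of dividing cells, was the single gene of the 20 that DESeq2 called (-0.82, SE 0.18; adjusted p = 0.0091). Of 25 replication genes 21 were below 0 in all 3 lines, with medians of -0.54, -0.54 and -0.49, and DESeq2 called the DNA polymerase subunits Pola1 (-0.99, SE 0.21) and Pole (-0.89, SE 0.18) and the ribonucleotide reductase subunit Rrm2 (-0.65, SE 0.15). Of 22 ribosomal protein genes 17 were below 0 in all 3 lines, and of 22 cholesterol synthesis genes 16 were. Of all genes, 20.5% were below 0 in all 3 lines, and DESeq2 called 1.57% lower. Members of a list are measured in the same 6 libraries and are not replicates of a condition.

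**Figure D3:**
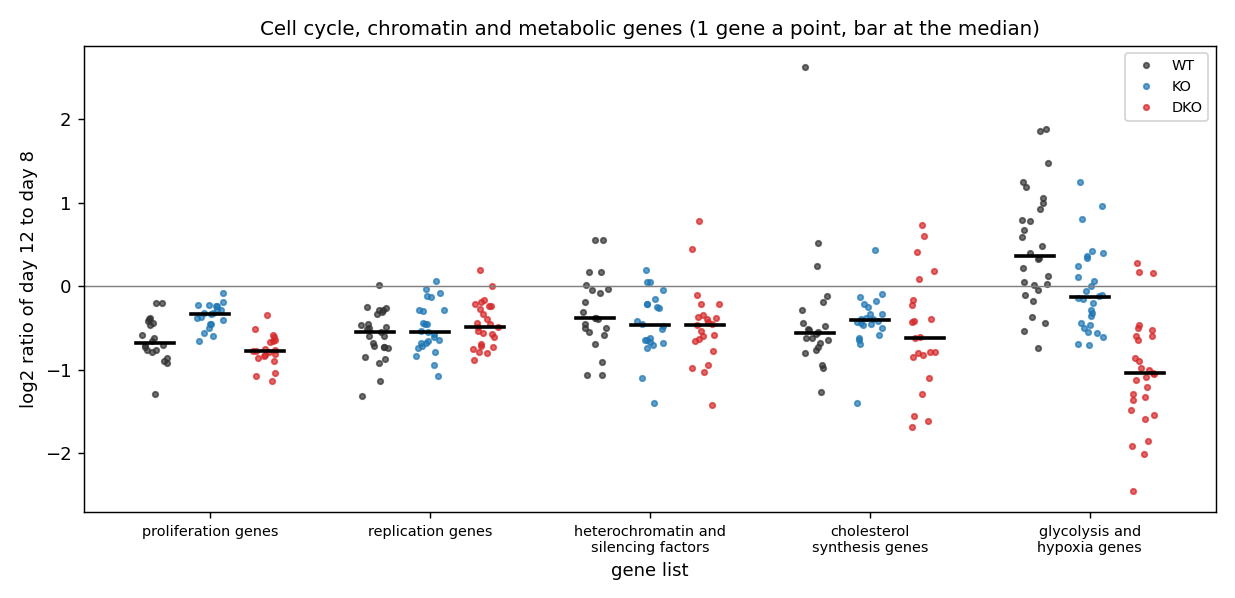
Log2 ratio of day 12 to day 8 of every tested member of 5 lists of cell cycle, chromatin and metabolic genes, 1 point a gene, by line, with a bar at the median and points spread sideways for legibility. Proliferation genes lie below 0 in all 3 lines, while the glycolysis and hypoxia list is centred at 0.37 in WT, -0.13 in KO and -1.04 in DKO.

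Heterochromatin and silencing factors, a list that also holds Polycomb genes and DNA methyltransferases, were mostly lower by small amounts in each line. Of 22 tested, 13 were below 0 in all 3 lines (20.5% of all genes were), with medians of -0.38, -0.46 and -0.46. DESeq2 called 4 lower (1.57% of all genes were) and none higher. These were Atrx, a chromatin remodeller of heterochromatin (-0.67, SE 0.15), Hells, a remodeller needed for DNA methylation (-0.81, SE 0.19), Uhrf1, which guides maintenance methylation (-0.77, SE 0.17), and Lbr, the lamin B receptor that tethers heterochromatin (-0.74, SE 0.17). A further list held enzymes that add or remove methyl groups on lysine 20 of histone H4 or are linked to them. Among its 8 tested genes, DESeq2 called only the demethylase-family gene Phf2 (0.91, SE 0.22, adjusted p = 0.042). Phf2 was at 99.8 and 137 CPM for WT, 30.6 and 74.8 CPM for KO and 23.4 and 46.2 CPM for DKO. Setd8, the monomethyltransferase, had log2 ratios of 0.60, -0.40 and -0.27.

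The lines also differed from each other. Across 12896 genes the log2 ratios of the lines, which share no library, had a Pearson r of -0.03 between WT and KO, 0.17 between WT and DKO and 0.46 between KO and DKO, given as a description across genes. Of the 1188 genes at least 2-fold lower in WT, 389 were at least 2-fold higher in KO, which is 32.7% of the former and 26.8% of the latter. KO and DKO had 681 genes at least 2-fold higher in common (46.8% and 46.5% of each) and 253 lower (42.0% and 24.3%). Tests of a change particular to 1 line had 1 residual degree of freedom, and edgeR called 0.0% of genes in WT, in KO and in DKO, with 1710, 484 and 284 genes at an unadjusted p under 0.05. DESeq2 called 151 genes higher (1.17%) and 388 lower (3.01%) in WT than in the other lines, 87 (0.716%) and 16 (0.132%) in KO, and 27 (0.214%) and 6 (0.0474%) in DKO. By size alone and with at least 5 RPKM, a level scaled for gene length and depth, in 1 library, 276 genes were higher and 389 lower in WT with neither other line following, 289 and 73 in KO, and 132 and 203 in DKO.

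**Figure D4:**
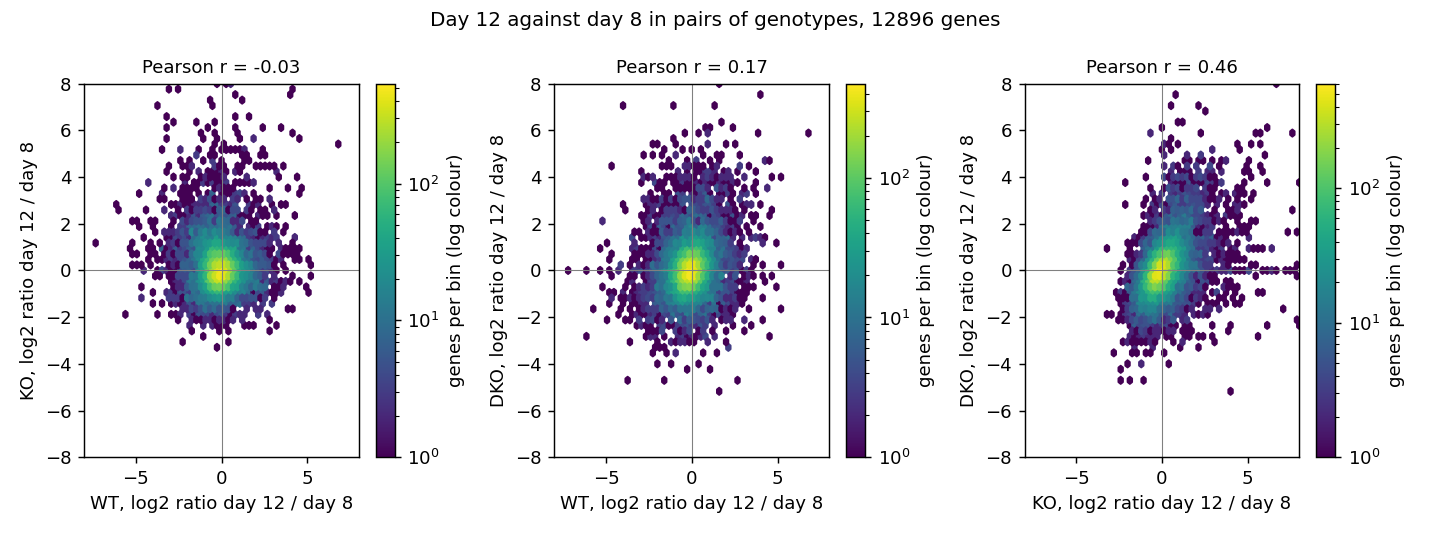
Log2 ratio of day 12 to day 8 of the 12896 genes in a pair of lines per panel, drawn as hexagonal bins whose colour is the number of genes on a log scale, with grey lines at 0 and axes held at -8 and 8. The bins of KO against DKO stretch along the diagonal (r = 0.46), those of WT against KO do not (r = -0.03), and the row of bins at 0 in DKO holds genes with few or no reads there.

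Globins, the oxygen carriers of red cells, differed between the lines in direction as well as size. Hbb-bh1, an embryonic beta-like chain, was at 1367 and 8.76 CPM for WT, at 45.8 and 103 CPM for KO, and had no reads in DKO at either day. Hba-x, the embryonic alpha-like zeta chain, was at 2072 and 30.0 CPM for WT and at 23.2 and 143 CPM for KO, again with no reads in DKO. WT was thus high at day 8 and low at day 12, KO the reverse, and DKO at 0 throughout. All 7 globin genes were at least 2-fold lower in WT and all 7 at least 2-fold higher in KO, with none past 2-fold in DKO, and their summed level was 5418 and 146 CPM for WT, 92.4 and 523 CPM for KO and 2.14 and 2.41 CPM for DKO. Hba-a1 and Hba-a2 had identical values, as had Hbb-b1 and Hbb-b2, near-identical copies whose reads were not separated, so the 7 are fewer than 7 measurements. DESeq2 called Hbb-bh1 lower in WT than in the other lines (adjusted p = 3.6e-33) and Hba-a1 higher in KO (adjusted p = 0.00024); edgeR called neither.

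The upstream sequences of Hba-x, Hbb-y and the erythroid gene Alas2 are shown because the erythroid factors Gata1 and Klf1, known to act on such promoters, followed the same course in WT. Each run is the 200 bases upstream of the RefSeq gene start in build GRCm38.p6, a different build from the mm9 alignment of the reads, written 5′ to 3′ on the gene's strand, and the capitals mark the GATA letters TGATAA or AGATAA and the KLF letters CCACCC on either strand. Hba-x lies at chr11:32276400-32276599 on the plus strand, Hbb-y at chr7:103853208-103853407 on the minus strand and Alas2 at chrX:150547217-150547416 on the plus strand.
Hba-x: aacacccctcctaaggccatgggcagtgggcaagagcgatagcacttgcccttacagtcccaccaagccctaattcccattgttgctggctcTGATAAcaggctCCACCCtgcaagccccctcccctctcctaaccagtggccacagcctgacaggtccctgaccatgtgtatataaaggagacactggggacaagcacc
Hbb-y: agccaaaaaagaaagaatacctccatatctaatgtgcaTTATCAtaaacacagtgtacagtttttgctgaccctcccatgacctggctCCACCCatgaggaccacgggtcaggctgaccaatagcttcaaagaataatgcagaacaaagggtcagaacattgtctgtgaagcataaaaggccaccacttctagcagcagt
Alas2: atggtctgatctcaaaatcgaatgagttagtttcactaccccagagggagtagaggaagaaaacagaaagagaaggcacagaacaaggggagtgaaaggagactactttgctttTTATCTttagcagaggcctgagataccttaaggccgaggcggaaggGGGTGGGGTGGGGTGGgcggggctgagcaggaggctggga
Counted from the gene start, the capitals begin at -108 (GATA) and -96 (KLF) in Hba-x, at -162 and -112 in Hbb-y, and at -86 (GATA) and -40, -35 and -30 (KLF) in Alas2. The GATA matches of Hbb-y and Alas2 and the KLF matches of Alas2 lie on the other strand, and neighbouring KLF matches of Alas2 overlap. GATA letters were in 4 of the 4 globin promoters that matched by symbol and in 7 of 13 erythroid promoters (53.8%), against 13.2% of all promoters. The 4 globin promoters include the copies Hba-a1 and Hba-a2, and 4 of the 7 erythroid ones belong to Ermap, Hemgn, Rhag and Rhd, which did not pass the level filter. KLF letters were in 4 of 4 and 9 of 13 (69.2%), against 24.1% of all. A match is a description of the letters, and no binding was measured here.

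Red cell genes outside the globin clusters were lower at day 12 mainly in WT. Of 16 tested, 13 were at least 2-fold lower in WT, 1 in KO and 4 in DKO, with medians of -3.0, 0.19 and -0.04. DESeq2 called 9 lower in WT than in the other lines (3.01% of all genes were). Gata1, the erythroid and megakaryocyte zinc finger factor, was at 96.3 and 3.98 CPM for WT, 7.96 and 8.22 CPM for KO and 0.623 and 0.482 CPM for DKO. Klf1, the erythroid Krüppel-like factor, was at 67.6 and 2.25 CPM, 9.55 and 10.8 CPM, and 3.74 and 4.98 CPM. Alas2, the erythroid enzyme of heme synthesis, was at 78.6 and 1.97 CPM for WT and at most 5.25 CPM in the other 4 libraries. Slc4a1, the red cell anion exchanger, was at 136 and 1.81 CPM for WT, 1.97 and 14.5 CPM for KO and 2.31 and 0.241 CPM for DKO. Gfi1b, a repressor of erythroid and megakaryocyte progenitors, was at 31.4 and 0.764 CPM for WT, at 3.25 and 3.48 CPM for KO, and without reads in DKO. In KO the globins were higher at day 12 while Gata1 and Klf1 differed little, with log2 ratios of 0.05 and 0.18.

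Platelet lineage genes were high at opposite times in WT and KO. Pf4, platelet factor 4, was at 42.2 and 5.39 CPM for WT, had no reads in KO at day 8 and 16.7 CPM at day 12 (at least 129-fold higher), and had no reads in DKO. Of 8 tested genes of the megakaryocyte and mast cell list 6 were at least 2-fold lower in WT, 7 higher in KO and 2 higher in DKO. The 4 mast cell proteases and carboxypeptidase on the list, Cpa3, Cma1, Mcpt4 and Tpsb2, did not pass the level filter and were at or near 0 in all 6 libraries. Gp9, a platelet glycoprotein, Treml1 and Tubb1, the platelet beta-tubulin, were at 17.8 to 96.9 CPM for WT at day 8, had no reads in KO at day 8, and were at 6.38, 5.76 and 10.2 CPM for KO at day 12.

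Macrophage genes were mostly higher in KO and lower in DKO. Of 14 tested, 8 were at least 2-fold higher and 3 lower in WT, 11 higher and none lower in KO, and none higher and 8 lower in DKO, with medians of 1.32, 4.04 and -1.27. Csf1r, the receptor for macrophage colony-stimulating factor, was at 6.38 and 25.7 CPM for WT, 0.171 and 12.1 CPM for KO and 0.756 and 0.884 CPM for DKO. C1qb, a chain of complement C1q made by macrophages, was at 2.19 and 38.1 CPM for WT, 0 and 17.7 CPM for KO and 0.267 and 0 CPM for DKO. DESeq2 called C1qa, C1qb and C1qc lower in DKO than in the other lines (adjusted p = 0.027, 0.014 and 0.014). In DKO 11 of the 14 were under 3 CPM at day 8, so those ratios rest on few reads. The summed level was 188 and 294 CPM for WT, 53.8 and 158 CPM for KO and 129 and 71.3 CPM for DKO, most of it from Laptm5 and Cd68, and 10 listed genes, among them the defining markers Ptprc, Itgam and Emr1, did not pass the level filter.

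Endothelial genes were lower in WT and mostly higher in KO. Of 22 tested, 21 were at least 2-fold lower in WT and none in KO, where 10 were higher, and DKO had 5 higher and 6 lower. The summed level of the list was 2237 and 544 CPM for WT, 536 and 861 CPM for KO and 312 and 241 CPM for DKO. Cdh5, VE-cadherin, was at 294 and 42.2 CPM for WT, 24.4 and 81.2 CPM for KO and 0.356 and 3.13 CPM for DKO. Cldn5, a tight junction claudin of endothelium, was at 183 and 5.10 CPM, 14.7 and 32.0 CPM, and 2.94 and 1.77 CPM. Kdr, the main VEGF receptor and a marker of blood and vessel progenitors, was at 285 and 41.9 CPM for WT, 56.9 and 142 CPM for KO and 1.56 and 25.6 CPM for DKO. DESeq2 called 14 of the 22 lower in WT than in the other lines (3.01% of all genes), among them Cdh5 (adjusted p = 9.6e-10), Cldn5 (2.9e-08) and Kdr (3.3e-07), while edgeR called none. Flt1, another VEGF receptor, was the exception and was higher in all 3 lines, with log2 ratios of 2.05, 0.88 and 1.05.

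**Figure D5:**
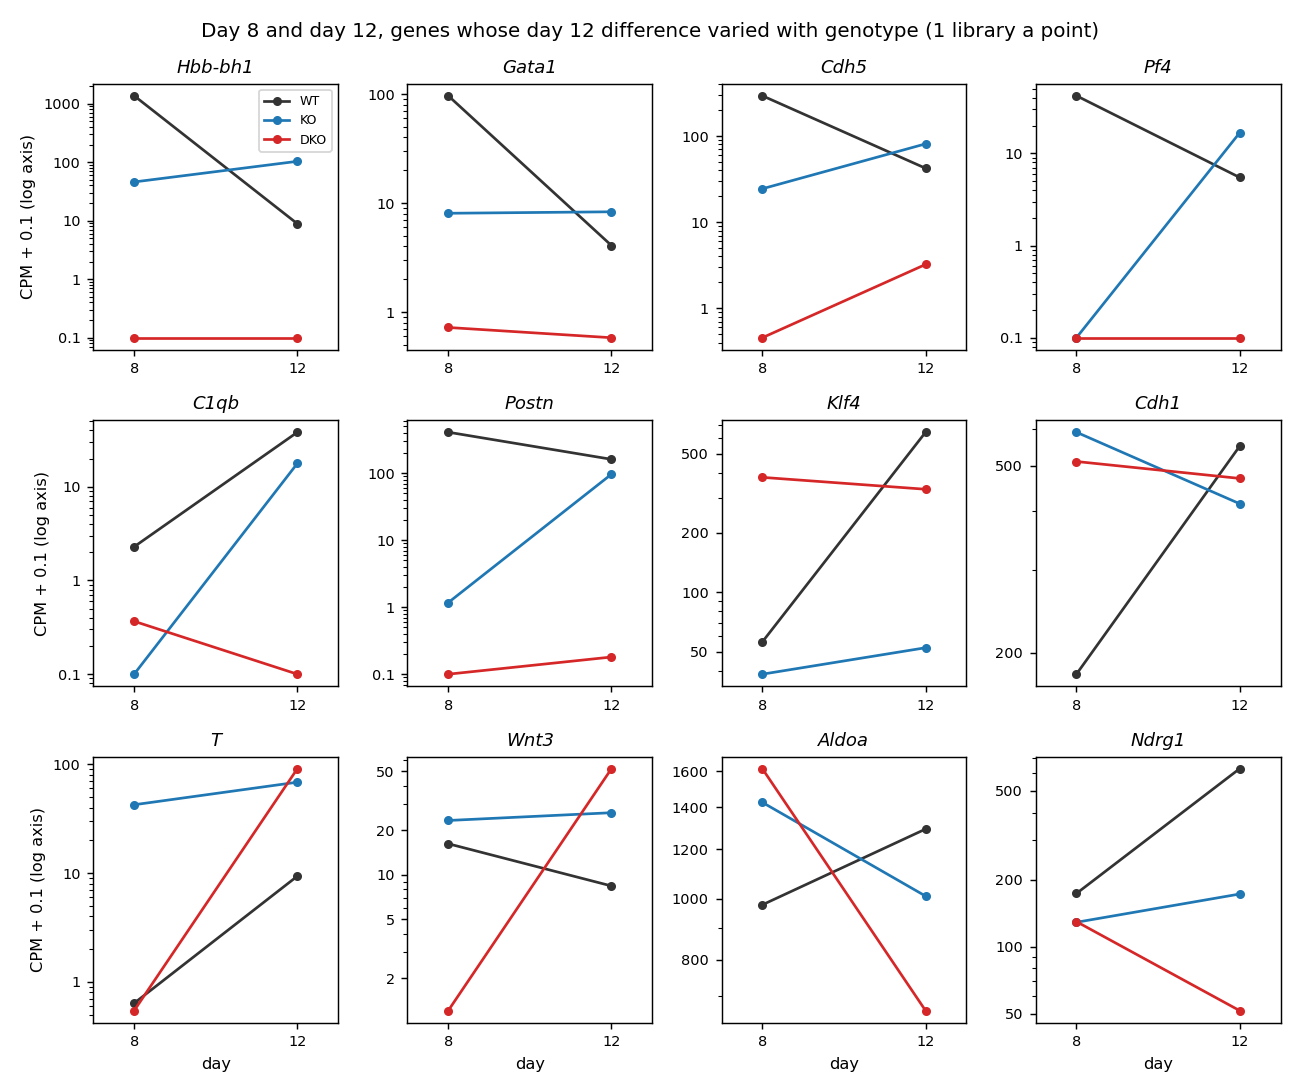
CPM + 0.1 on a log axis at days 8 and 12 for 12 genes whose difference varied with the line, each panel on its own range; each point is 1 library and each line joins a cell line's days. Hbb-bh1, Gata1 and Cdh5 slope downward in WT, Pf4 and Postn slope steeply upward in KO, T and Wnt3 in DKO, and Aldoa and Ndrg1 slope upward in WT and downward in DKO.

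Heart muscle genes were mostly higher in KO, mostly lower in WT and low in DKO. Of 20 tested, 14 were at least 2-fold higher in KO and none lower, 10 were lower in WT and 2 higher, and DKO had 7 higher and 5 lower. Actc1, cardiac alpha-actin, was at 21.3 and 5.75 CPM for WT, 1.41 and 39.8 CPM for KO and 0 and 0.482 CPM for DKO. Myh7, a cardiac myosin heavy chain, was at 22.3 and 14.3 CPM, 5.05 and 46.5 CPM, and 0.934 and 0.924 CPM. Tnni1, the slow troponin I of embryonic heart, was at 40.0 and 3.34 CPM for WT, 0.556 and 22.6 CPM for KO and 0.178 and 0.241 CPM for DKO. The transcription factors Hand1 and Hand2 of heart and lateral mesoderm differed in level by line, with Hand2 at 718 and 247 CPM for WT, 51.7 and 320 CPM for KO and 0.623 and 1.29 CPM for DKO. The summed level of the list was 2113 and 865 CPM for WT, 435 and 1105 CPM for KO and 29.6 and 40.2 CPM for DKO. Myl3, a ventricular myosin light chain, was among the 2 genes at least 2-fold higher in WT, at 1.92 and 78.4 CPM there and at 2.69 CPM or less elsewhere.

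Of the collagen and extracellular matrix list, which also holds the Col4a1, Col4a2 and Sparc described above, 24 of 25 genes tested were at least 2-fold higher in KO, against 8 higher and 8 lower in WT and 11 higher and 5 lower in DKO. Col3a1, a fibrillar collagen, was at 1261 and 812 CPM for WT, 2.27 and 376 CPM for KO and 0.223 and 0.804 CPM for DKO. Postn, periostin, was at 410 and 161 CPM for WT, 1.07 and 96.7 CPM for KO and 0 and 0.0804 CPM for DKO. Lum, the proteoglycan lumican, was at 43.4 and 68.5 CPM for WT, and in KO had no reads at day 8 and 26.7 CPM at day 12. In these 3 genes KO at day 12 lay below WT at both days, and DKO was below both by a wide margin. DESeq2 called 10 of the 25 lower in WT than in the other lines (3.01% of all genes), and 7 higher in KO than in the other lines (0.716%). Among the 7 were Col3a1 (adjusted p = 1.4e-11) and Postn (2.1e-08). Fn1, fibronectin, was the member not past 2-fold in KO, at 1386 and 1661 CPM.

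Of 18 mesenchyme genes tested, 13 were at least 2-fold higher in KO, 9 in DKO and 3 in WT, while 6 were lower in WT, 3 in DKO and 1 in KO. Vim, vimentin, was at 1603 and 1211 CPM for WT, 322 and 1067 CPM for KO and 39.6 and 276 CPM for DKO. Cdh2, N-cadherin, was at 86.8 and 20.4 CPM, 42.2 and 90.9 CPM, and 6.36 and 44.9 CPM. Snai1, a repressor of E-cadherin, was higher in all 3 lines (log2 ratios 1.28, 0.75 and 1.56; DESeq2 adjusted p = 0.0037). Of the imprinted genes tested, many of them regulators of fetal growth, 15 of 28 were at least 2-fold higher in KO, 12 in DKO and 1 in WT, while 10 were lower in WT and 2 in DKO. Dlk1, a paternally expressed membrane protein of mesoderm, was at 2471 and 2302 CPM for WT, 10.6 and 279 CPM for KO and 3.25 and 31.0 CPM for DKO. Igf2, insulin-like growth factor 2, was at 14230 and 16271 CPM for WT, 311 and 1441 CPM for KO and 28.3 and 800 CPM for DKO. Meg3, the maternally expressed RNA beside Dlk1, was at 474 and 376 CPM for WT and 345 and 1612 CPM for KO but at most 0.534 CPM for DKO.

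Genes of the primitive streak, the site where epiblast becomes mesoderm and endoderm, were at least 2-fold higher at day 12 mainly in WT and DKO. The median log2 ratio of the 15 tested was 1.47 in WT, 0.61 in KO and 3.57 in DKO. T, Brachyury, was at 0.538 and 9.29 CPM for WT, 42.4 and 68.4 CPM for KO and 0.445 and 91.1 CPM for DKO. DKO thus had the lowest level at day 8 and the highest at day 12, KO was high at both days and WT low at both. Mixl1, a homeobox gene of the streak, was at 0.499 and 13.7 CPM, 21.9 and 39.1 CPM, and 4.49 and 76.0 CPM. Eomes, a T-box factor of the streak, was at 4.69 and 39.0 CPM, 89.5 and 107 CPM, and 50.7 and 269 CPM. Of 15 genes tested, 10 were at least 2-fold higher in WT, 1 in KO and 11 in DKO, and 2 were lower in WT and 1 in DKO. DESeq2 called 6 higher in the shared comparison (2.89% of all genes) and 5 higher in DKO than in the other lines (0.214%), among them Wnt3 (adjusted p = 1.1e-05), Evx1 (5.9e-06) and Fgf8 (0.02).

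Wnt3, the Wnt ligand that starts the streak, was at 16.1 and 8.32 CPM for WT, 23.2 and 26.2 CPM for KO and 1.11 and 52.0 CPM for DKO. Sp5, a direct Wnt target, was at 7.18 and 15.3 CPM, 27.6 and 61.0 CPM, and 1.56 and 126 CPM, and Wls, which carries Wnt ligands to the cell surface, was at 3.96 and 95.2 CPM for DKO. Msx1, a homeobox gene induced by BMP, was at 311 and 91.3 CPM for WT, 67.9 and 71.7 CPM for KO and 3.03 and 102 CPM for DKO, and Msx1as, which overlaps it on the other strand, had a log2 ratio of 5.38 in DKO. Whether the counting used strand is unknown here, so the reads of Msx1 and Msx1as cannot be told apart. Cdx2, a caudal and trophoblast factor, was at 184 and 44.5 CPM for WT, 41.3 and 52.6 CPM for KO and 1.69 and 21.0 CPM for DKO. Nkx1-2, of the caudal progenitors, was at 0.756 and 18.5 CPM for DKO and at 11.7 and 0.402 CPM for WT. In Msx1, Cdx2 and Nkx1-2 the WT and DKO log2 ratios therefore had opposite signs, while KO had ratios of 0.08, 0.35 and 0.01.

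Glycolysis and hypoxia genes were mostly lower in DKO. Of 28 tested, 16 were at least 2-fold lower in DKO and none in WT or KO, where 6 and 1 were higher. Aldoa, the glycolytic aldolase, was at 978 and 1293 CPM for WT, 1427 and 1010 CPM for KO and 1615 and 663 CPM for DKO. Egln3, a hypoxia-induced prolyl hydroxylase, was at 159 and 330 CPM, 275 and 247 CPM, and 309 and 85.6 CPM. Ndrg1, a gene induced by low oxygen, was at 173 and 630 CPM for WT, 128 and 172 CPM for KO and 129 and 51.4 CPM for DKO. DESeq2 called none of the 28 in DKO against the other lines and 2 higher in WT (1.17% of all genes), Gpi1 (adjusted p = 0.033) and Ndrg1 (0.024). Ndrg2, a relative named among the genes lower in DKO with neither other line following, was at 92.6 and 14.1 CPM for DKO and at 89.8 CPM on both days in WT.

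Among the remaining genes that differed in 1 line by the size rule, WT held Tesc (0.653 and 24.8 CPM), Islr2 (1.65 and 57.8 CPM), the neuregulin Nrg2 (3.69 and 93.3 CPM) and the X-linked homeobox gene Rhox9 (11.2 and 127 CPM) as higher. F2rl3, a thrombin receptor of platelets, and Clec14a, an endothelial lectin, were lower in WT, at 41.6 and 1.0 CPM and at 41.3 and 1.29 CPM. KO held Kcnk3, a potassium channel, at 0.171 and 58.5 CPM, and Mab21l2 at 1.58 and 88.4 CPM, and in each the KO day 12 level was near the WT levels. Genes lower in KO had smaller ratios: Foxi3, a forkhead factor (12.9 and 3.01 CPM), the neurofilament gene Prph (31.8 and 9.28 CPM), Gpx2, Cbr3, Pnp2, Ppp1r1a, Foxd1 and Serpina3m had log2 ratios from -2.07 to -1.59. DKO held Vstm2b, Lzts1 and the Nodal co-receptor Cfc1 as higher, with log2 ratios of 5.21, 3.97 and 3.96. Ppm1j, Lgals9, the protease Hpn and 1190002H23Rik were lower there, with log2 ratios from -3.46 to -2.52. The short RNA genes Mir1938, Snora44, Snora34 and Snord35a also met the rule on at most 2.76 CPM in any library, so their ratios rest on few reads.

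Stress-related genes were read beside these results. Of 17 immediate early genes, which respond to handling as well as to signals, 11 were at least 2-fold higher in WT, 3 in KO and 5 in DKO. In DKO 3 were at least 2-fold lower. The medians were 1.31, 0.02 and -0.13, and 5 of the 17 were above 0 in all 3 lines (16.9% of all genes were). DESeq2 called 5 higher in the shared comparison (2.89% of all genes), among them Atf3 (log2 ratios 2.23, 1.93 and 1.42), Fosl2 (1.91, 0.94 and 1.80) and the YAP target Ctgf (3.22, 1.29 and 1.82). Of 22 cell cycle inhibitors and p53 targets, 9 were at least 2-fold higher in DKO, 4 in WT and 2 in KO. Over all genes the shares were 11.4% in DKO, 7.96% in WT and 11.3% in KO. Cdkn1a, the inhibitor p21, was at 162 and 328 CPM for WT, 205 and 296 CPM for KO and 127 and 392 CPM for DKO, higher at day 12 in each line (1.06, SE 0.26; DESeq2 adjusted p = 0.021). The part of stress or handling in the other differences was not tested.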

How the data were processed

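Polyadenylated RNA of the 6 differentiated libraries was analysed. The deposited tables give read counts and RPKM per transcript model; per the submitters' processing notes Bowtie2 and the mm9 build were used, and how reads were counted, with or without strand, was not given in the sources used here. Counts were taken as the authors deposited them, and the authors' RPKM values served for the level filter only. Of 29257 models, 1 per symbol was kept, the longest (22878 symbols; 4019 had several models). Genes with at least 1 RPKM in 2 of the 6 libraries were tested (12896).

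The shared difference was tested with edgeR 4.0.16 (quasi-likelihood, TMM scaling, R 4.3.3), with the genotype as a block and Benjamini-Hochberg adjustment at 0.05. A difference particular to a line used the same model with an added term. Standard errors were taken from the F statistic and are approximate. DESeq2 1.42.0 and a fit of all 12 libraries were alternatives. Since same-genotype libraries come from the same cell line, the block pairs them; their deviations from the day means correlated at 0.614 (WT), 0.356 (KO) and 0.73 (DKO). P-values measure only the spread between these libraries. The fits were also run on simulated counts, drawn with a single spread for all genes and the same fold in every line that changed. Those counts lack the spread between lines seen here, so they cannot decide between the tools' calls. Figures used Python 3.11.15 and matplotlib 3.10.9.

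Genes named were the targeted genes; the 12 higher and 12 lower with the smallest shared p among those alike in sign in all 3 lines and at 5 RPKM or more in 1 library; per line the 8 highest and 8 lowest by log2 ratio past 1 or -1 with the other lines within 0.5 of 0 or of opposite sign; and per list up to 4 by smallest p and 4 by widest range of ratios. Other genes were chosen after their values were seen. Some genes that met these rules are not reported here. The comparison and the 40 lists were chosen with earlier results of these data known. A gene with no reads is compared with 3 counts per library. Intervals and floors of this kind cover counting error only.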

Additional observations from a re-analysis of the deposited data

Results flagged for a closer look

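Lists of at least 5 tested genes stand here whose median was at least 2-fold lower in a line and at least 2-fold higher in another. Globin genes had a median log2 ratio of -4.16 in WT and 2.62 in KO. Macrophage and myeloid genes had a median of -1.27 in DKO and 4.04 in KO. Megakaryocyte and mast cell genes had a median of -2.50 in WT and 4.80 in KO. Each line has 1 library per day, and the difference between lines was not tested for these lists.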

How the results depend on the processing

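With edgeR no gene passed for the shared day 12 change or for the WT-specific day 12 change, KO-specific day 12 change and DKO-specific day 12 change, and the counts were again 0 with RLE scaling, without the level filter and with the model of most reads per symbol. Without the replicate block, which leaves the pairing by genotype out, the shared count was also 0 (275 genes at an unadjusted p under 0.05), and it ranged from 0 to 0 when each genotype's pair was left out in turn. Line-particular fits could not be repeated that way, since no residual degree of freedom is left. DESeq2 called 563 genes in the shared comparison and 539, 103 and 33 in WT, KO and DKO. A fit of all 12 libraries, whose spread comes from ES pairs that may be technical replicates, called 4950 and 3419, 2137 and 1755. The calls therefore depend on how the spread is estimated. None of 164 values of named genes turned its sign under the other scaling, filter, model or tools, nor did any of the 116 shared ones without the block or with a pair left out; of the 164, DESeq2 put 114 and the 12-library fit 154 past the threshold. How depth limits the calls was not tested.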

Other observations

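Hox genes, which mark position along the body axis, were split by line: of 29 tested, 14 were at least 2-fold lower in WT and 1 higher, against 11 higher and none lower in KO and 12 higher and 2 lower in DKO. Hoxa13, of the posterior end, was at 42.8 and 14.6 CPM at days 8 and 12 for WT, 1.84 and 9.24 CPM for KO and 0.534 and 0.442 CPM for DKO. Hoxd9 was at 54.8 and 20.9 CPM, 16.3 and 23.8 CPM, and 0.579 and 4.42 CPM. DESeq2 called none of the 29 in the shared comparison or in a single line, and neither did edgeR.

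Of 18 listed trophoblast genes 11 were tested, and Elf5, Tpbpa, Prl3d1 and Gcm1 were among those that did not pass the level filter. At least 2-fold higher were 7 in WT, 3 in KO and 6 in DKO, and 2 were lower in WT and 2 in DKO. Cdx2, described above, was lower in WT, and Eomes was higher in all 3 lines. Gata2, a factor of trophoblast and blood, was at 71.5 and 369 CPM for WT, 42.5 and 59.4 CPM for KO and 11.7 and 11.9 CPM for DKO. Rhox6, an X-linked homeobox gene of placenta, was at 14.3 and 179 CPM, 52.7 and 34.9 CPM, and 0.401 and 1.29 CPM. Of 11 genes of retinoic acid handling, DESeq2 called 4 higher at day 12 in the shared comparison (2.89% of all genes were). These included Cyp26a1, which degrades retinoic acid (log2 ratios 3.45, 0.75 and 2.86), and Rdh10, which makes its precursor (0.62, 2.23 and 3.17). Of 23 interferon and antigen presentation genes, B2m, the light chain of class I molecules, was higher in all 3 lines, with log2 ratios of 1.32, 1.25 and 1.10 (DESeq2 adjusted p = 0.0002). H2-D1, a class I heavy chain, had ratios of 2.53, 0.09 and -0.15.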
